A study of Mus musculus with 12 samples.

Results

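The genes described here encode subunits of the 5 complexes of oxidative phosphorylation. They were taken by gene symbol, as Nduf genes with the letters a, b, c, s or v and a number (complex I), Sdha to Sdhd (complex II), Uqcr genes (complex III), Cox4 to Cox8 genes (complex IV) and Atp5 genes (complex V). This gave 81 of the 18193 genes measured: 35 in complex I, 4 in complex II, 8 in complex III, 17 in complex IV and 17 in complex V. Each gene was read from the probe set with the highest mean among those that named it alone. A further 7 symbols of these families, Ndufa11 and Ndufs6 among them, stood only on probe sets shared with another gene and were not used here. The symbols are those of the array annotation, and the grouping follows the symbol, so Ndufa4 counts under complex I although the protein is now known as a subunit of complex IV.

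Expression was measured on 12 Affymetrix mouse arrays, 3 in each of 4 groups. Primary hepatocytes were cultured for 48 h in a medium with 2.5% dimethyl sulfoxide and 10 nM dexamethasone, which all groups shared, and then received 10 nM TCDD or the DMSO vehicle for 6 h. The dioxin TCDD is a ligand of the aryl hydrocarbon receptor, AHR, which when bound switches on genes such as Cyp1a1. C57BL6/J mice, with the mouse allele Ahrb, gave the wild type cells. Human AHR cells came from mice with the allele Ahrtm3.1Bra and the transgenes Tg (Alb-cre, Ttr-AHR)1Ghp on a B6.Cg background, in which Cre under the hepatocyte promoter Alb acts on a floxed Ahr allele and the human receptor is driven by the hepatocyte promoter Ttr. The comparisons ask what TCDD does through each receptor, whether these effects differ, and how the genotypes differ under vehicle and under TCDD. According to the design text each array came from a different mouse, though same-numbered human AHR arrays deviated together, as described below. No age of the mice was used here.

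Oxidative phosphorylation takes place in the inner mitochondrial membrane. Complexes I and II pass electrons from NADH and succinate to ubiquinone, complex III passes them on to cytochrome c, complex IV reduces oxygen, and complex V uses the proton gradient built by complexes I, III and IV to make ATP. Hepatocytes are rich in mitochondria and rely on this pathway for gluconeogenesis, urea synthesis and fatty acid oxidation. All subunits of complex II and most subunits of the other complexes are encoded in the nucleus, while a small set of core subunits comes from the mitochondrial genome. Several subunits of complex IV exist as a widely expressed form and as a form of muscle, lung or testis.

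Signals are array intensities, which had been deposited on a larger scale in the 3 wild type TCDD arrays than in the other 9 (trimmed means of 500 and 150) and were all rescaled to 150. The deposited scale therefore coincides with the treatment in wild type cells and with the genotype under TCDD, and they cannot be told apart. It also enters the difference of the TCDD effects. Within groups, arrays correlated across genes at 0.958 to 0.985, and 0 pairs were identical. All 7 measured hepatocyte markers, Alb and Apob among them, had mean signals above 200, with summed signals from 45230 to 61330. The 4 markers of skeletal and heart muscle summed to between 21.6 and 82.02, with Myh6 down to 0.5. The 2 of brown fat summed to between 59.1 and 181.2, with Ucp1 at most 19.23. Of the markers of other liver cells, Cd68 (1712 to 4041) and the bile duct keratin Krt19 (307.3 to 1153) had mean signals above 200. Xist, the RNA of the inactive X in females, read 3085 and 2952 in the vehicle and TCDD arrays of wild type replicate 2 and at most 29.3 in the other arrays. The 3' to 5' signal ratio of Gapdh, a measure of RNA integrity, lay between 0.798 and 0.841 over the arrays.

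RefSeq (build GRCm38.p6) gave promoter windows for 66 of the 81 genes, and the 250 bases before each start were searched on both strands for 5 motifs. The site of NRF1, a factor known to act on respiratory chain genes and written here as GCGCA and GCGC with any 1 base between them, was found for 11 genes and in 16.9% of their 71 windows, against 3.74% of all 32851 windows. These 11 were 4 of complex I, 2 of complex II, 1 of complex IV and 4 of complex V. The ETS core bound by GABPA, CCGGAAG, was found in 16.9% of the windows against 6.91% of all, and the YY1 motif AANATGGCG in 4.23% against 1.12%. The core of the AHR response element, GCGTG, was found for 28 genes and in 42.3% of the windows against 28.2% of all, and TATAAA in 11.3% against 12.4%. AHR cores and NRF1 matches were counted separately, and they may overlap. A match says that the letters are present and not that a factor binds.

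The promoters below belong to genes whose signals the text returns to and that have a window (Ndufs1 and Uqcrc2 have none), and Sdha and Cox6a1 are added because they hold 3 and 2 NRF1 matches. Each is written 5′ to 3′ along the gene and ends 1 base before the start, and capitals mark matches to the NRF1, ETS, YY1 or AHR motif on either strand.
Ndufs8, chr19:3912775-3913024, minus strand: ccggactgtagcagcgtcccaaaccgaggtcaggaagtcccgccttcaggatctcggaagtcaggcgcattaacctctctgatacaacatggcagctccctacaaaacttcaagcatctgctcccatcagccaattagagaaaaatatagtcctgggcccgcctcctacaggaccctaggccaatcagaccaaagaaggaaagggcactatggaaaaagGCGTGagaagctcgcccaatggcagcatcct
Ndufb3, chr1:58586147-58586396, plus strand: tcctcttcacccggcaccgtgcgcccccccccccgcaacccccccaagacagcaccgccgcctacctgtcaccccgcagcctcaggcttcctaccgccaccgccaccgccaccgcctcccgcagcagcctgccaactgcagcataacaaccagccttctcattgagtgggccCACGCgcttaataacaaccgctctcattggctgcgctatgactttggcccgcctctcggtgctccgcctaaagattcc
Ndufa8, chr2:36049339-36049588, minus strand: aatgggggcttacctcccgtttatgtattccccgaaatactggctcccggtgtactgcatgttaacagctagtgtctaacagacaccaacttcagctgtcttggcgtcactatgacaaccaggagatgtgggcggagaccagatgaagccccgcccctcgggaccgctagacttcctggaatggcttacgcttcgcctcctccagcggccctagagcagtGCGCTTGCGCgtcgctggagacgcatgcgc
Sdha, chr13:74350241-74350490, minus strand: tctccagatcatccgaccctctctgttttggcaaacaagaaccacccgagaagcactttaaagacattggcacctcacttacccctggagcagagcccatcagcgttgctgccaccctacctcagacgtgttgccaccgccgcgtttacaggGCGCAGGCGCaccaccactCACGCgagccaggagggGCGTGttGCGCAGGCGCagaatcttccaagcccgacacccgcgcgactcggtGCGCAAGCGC
Cox6a1, chr5:115348959-115349208, minus strand: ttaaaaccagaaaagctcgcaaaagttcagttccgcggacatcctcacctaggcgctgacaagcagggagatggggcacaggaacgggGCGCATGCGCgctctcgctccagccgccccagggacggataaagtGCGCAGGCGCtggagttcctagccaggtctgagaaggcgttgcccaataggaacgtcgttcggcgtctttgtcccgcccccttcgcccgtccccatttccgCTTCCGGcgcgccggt
Cox8b, chr7:140900447-140900696, minus strand: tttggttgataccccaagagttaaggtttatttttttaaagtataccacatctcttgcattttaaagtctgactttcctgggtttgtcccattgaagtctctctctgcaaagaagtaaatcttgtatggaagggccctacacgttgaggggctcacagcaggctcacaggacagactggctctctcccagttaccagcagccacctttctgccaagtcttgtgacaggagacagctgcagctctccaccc
Ndufs8 and Ndufb3 hold 1 AHR core each and none of the NRF1, ETS or YY1 motifs. In Ndufa8 the NRF1 match starts 30 bases before the gene. In Sdha the capitals include 2 AHR cores besides the 3 NRF1 matches, and in Cox6a1 the last capitals are an ETS core. Cox8b, a muscle form, holds none of these motifs in the window.

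Most subunit genes gave a bright signal in these hepatocytes. In 70 of the 81 genes (86.4%) the signal was above 500 in every array, against 12.4% of all genes measured, and in 9 it was below 200 in every array. The remaining pair met neither limit, with Ndufb1 at 191.9 to 304.1 and Ndufa4l2 at 207.4 to 627.2. The spread between replicates (residual SD on the log2 scale) had a median of 0.16 over the 81 genes and 0.27 over all genes, most of which are dimmer. Among genes above 500 in every array it was 0.16 for the 70 subunit genes and 0.18 for all 2251. A signal depends on the probe as well as on the RNA, so signals of different genes are not ranked against each other. Less RNA of a gene per hepatocyte and fewer hepatocytes in the culture cannot be told apart in such bulk samples.

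Complex I takes electrons from NADH through a chain of flavin and iron-sulfur cofactors. Ndufs1, which encodes the largest subunit and binds several of the iron-sulfur clusters, was the steadiest of all 81 genes, with a residual SD of 0.024. Its signals were 864.5, 897.1 and 876.5 in wild type vehicle arrays, 791.5, 787.5 and 783.7 in wild type TCDD arrays, 884.2, 849.6 and 846.7 in human AHR vehicle arrays, and 863.4, 842.5 and 847.6 in human AHR TCDD arrays. The 3 wild type TCDD arrays were thus the lowest of the 12. Ndufv1, which binds NADH, averaged 1439 ± 91.2 (SD, n = 3) in wild type vehicle and 1388 ± 178 in human AHR vehicle arrays. Its partner Ndufv2 averaged 3067 ± 356 and 2743 ± 295.

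At the other end stood Ndufs8, an iron-sulfur subunit near the ubiquinone site, with a residual SD of 0.47, the widest of the 70 bright genes. It read 1365, 2684 and 3252 in wild type vehicle arrays, 1187, 1978 and 1392 in wild type TCDD arrays, 2037, 1225 and 2169 in human AHR vehicle arrays, and 2767, 1908 and 1832 in human AHR TCDD arrays. The ranges of all 4 groups overlap. Ndufs8 had 6 probe sets. The log2 change with TCDD in wild type cells was -0.62 on the probe set used, and -0.18, -0.12, -0.13, 0.0099 and -0.05 on the others, whose mean signals ran from 73.28 to 1423. Ndufa4l2, a paralog of Ndufa4 known as a target of hypoxia-inducible factor, varied nearly as much (residual SD 0.44), between 207.4 in wild type TCDD replicate 3 and 627.2 in human AHR TCDD replicate 3.

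All 4 genes of complex II, the succinate dehydrogenase that also serves the citric acid cycle, were bright. Sdha, the flavoprotein, averaged 2043 ± 175, 2001 ± 172, 1851 ± 108 and 1960 ± 66.4 in wild type vehicle, wild type TCDD, human AHR vehicle and human AHR TCDD arrays. Sdhb, the iron-sulfur subunit, averaged 3477 ± 500, 3314 ± 499, 3042 ± 347 and 3281 ± 377 in the same order. The membrane anchors Sdhc and Sdhd averaged 1665 ± 135 and 2118 ± 95.4 in wild type vehicle arrays. Sdhc read 1819, 1566 and 1610 in wild type vehicle, 1627, 1325 and 1287 in wild type TCDD, 2143, 1528 and 1572 in human AHR vehicle, and 1623, 1564 and 2060 in human AHR TCDD arrays. The wild type TCDD arrays hold its lowest signals, and all groups overlap.

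In complex III all 8 genes were bright, with mean signals over the 12 arrays from 1876 (Uqcrc2) to 11860 (Uqcrb). Uqcrfs1, the Rieske iron-sulfur protein that hands electrons to cytochrome c1, averaged 2553 ± 350 in wild type vehicle, 2441 ± 170 in wild type TCDD, 2412 ± 302 in human AHR vehicle and 2432 ± 191 in human AHR TCDD arrays. The core protein genes Uqcrc1 and Uqcrc2 had residual SDs of 0.094 and 0.065. Uqcrc2 read 2020, 1918 and 1968 in wild type vehicle, 1724, 1829 and 1982 in wild type TCDD, 1804, 1720 and 1813 in human AHR vehicle, and 1942, 1975 and 1818 in human AHR TCDD arrays. The human AHR vehicle arrays lay below the wild type vehicle arrays and below the human AHR TCDD arrays without overlap.

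Complex IV held bright and dim genes, and most of the dim ones are known forms of other tissues. The 9 bright genes were Cox4i1, Cox5a, Cox5b, Cox6a1, Cox6b1, Cox6c, Cox7a2, Cox7a2l and Cox8a, widely expressed subunit forms together with Cox7a2l, a factor that joins complexes III and IV. The muscle or heart forms Cox6a2 (19.1 to 43.8), Cox7a1 (17 to 55.3) and Cox8b (2.3 to 31.9), the lung form Cox4i2 (2.3 to 18.57) and the testis forms Cox6b2 (1 to 9.7), Cox7b2 (0.5 to 6.6) and Cox8c (42.8 to 122.4) stayed below 200 in every array. Cox7c, which has no second form and is needed in all tissues, was also dim, at 25.4 to 59.31 on the brighter of its 2 probe sets. Likewise Ndufb4 of complex I read 3.5 to 22.3 on the 1 probe set that named it alone. Whether these probe sets report the transcripts was not tested. Cox4i1, which regulates the complex, averaged 5616 ± 308, 5865 ± 668, 5516 ± 529 and 5807 ± 251 in wild type vehicle, wild type TCDD, human AHR vehicle and human AHR TCDD arrays. Cox5a and Cox5b averaged 5881 ± 395 and 6143 ± 1030 in wild type vehicle and 5839 ± 292 and 5866 ± 549 in human AHR vehicle arrays. Cox6a1 averaged 7857 ± 820, 8408 ± 866, 8396 ± 602 and 8619 ± 652.

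All 17 genes of complex V, the ATP synthase, were bright, and their median residual SD of 0.14 was below that of complexes I to IV. Atp5a1 and Atp5b, which together form the ring that makes ATP, averaged 4504 ± 147 and 6540 ± 317 in wild type vehicle arrays. They averaged 4461 ± 209 and 6837 ± 765 in wild type TCDD, 4272 ± 51.2 and 6599 ± 301 in human AHR vehicle, and 4617 ± 360 and 6998 ± 619 in human AHR TCDD arrays. Atp5c1, the rotating gamma subunit, averaged 4483 ± 839, 4090 ± 206, 3947 ± 158 and 4235 ± 341 in that order. Atp5g1, Atp5g2 and Atp5g3 encode the same mature proton-carrying subunit with different leader peptides. Of these, Atp5g1 had the wider spread (residual SD 0.26), with 0.13 for Atp5g2 and 0.11 for Atp5g3. Atp5md, a small subunit that helps ATP synthase dimers form, spread most in this complex (0.29), from 2588 in wild type TCDD replicate 2 to 5228 in wild type TCDD replicate 3.

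**Figure D1:**
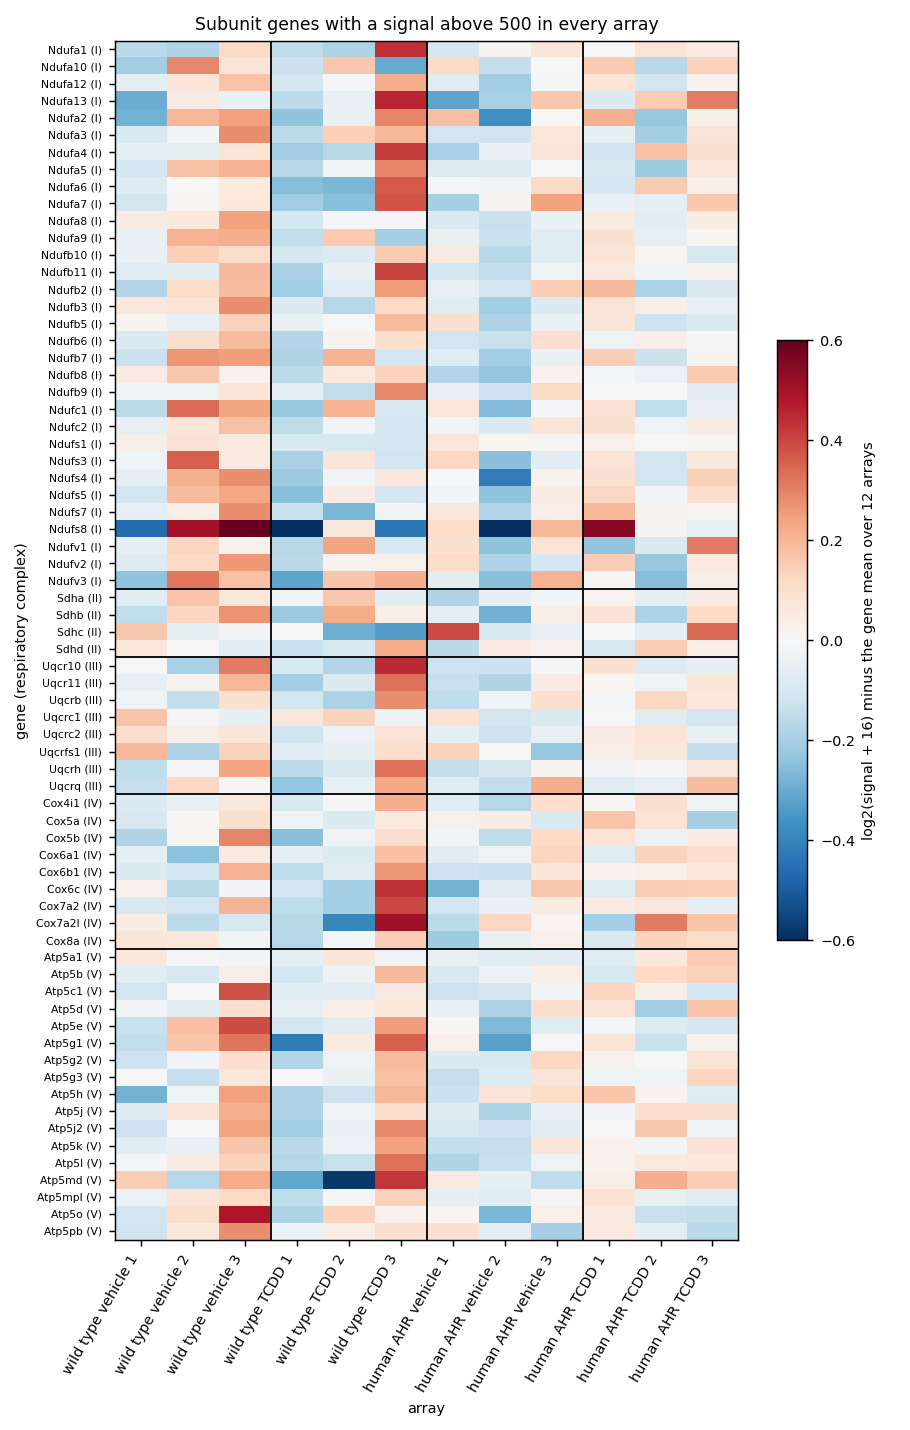
Heat map of the 70 subunit genes with a signal above 500 in every array (rows, ordered by complex) over the 12 arrays (columns, separated by group). The colour is log2 of the signal plus 16 minus the gene's mean over all arrays, and whole columns such as wild type TCDD replicates 1 (blue) and 3 (red) stand out more than any group does.

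As a measure of level, the median over the 81 genes of the deviation from each gene's own mean was taken in every array. It was -0.06, 0.01 and 0.15 on the log2 scale in wild type vehicle replicates 1 to 3, and -0.16, -0.03 and 0.15 in wild type TCDD replicates. In human AHR cells it was -0.07, -0.13 and 0.03 under vehicle and 0.03, -0.02 and 0.04 under TCDD. Group means were 0.03, -0.01, -0.06 and 0.02 in this order, with a pooled SD between replicates of 0.10. In wild type TCDD replicate 1 only 5 of the 81 genes lay above their own mean, and in wild type vehicle replicate 3 it was 69. The median of all genes measured stayed between -0.04 and 0.04 in every array. Beside the lowest and the highest TCDD array, the Gapdh 3' to 5' ratio was 0.839 in wild type TCDD replicate 1 and 0.827 in replicate 3, and the Actb ratio 1.47 and 1.52. The part of RNA quality in these shifts was not tested.

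**Figure D2:**
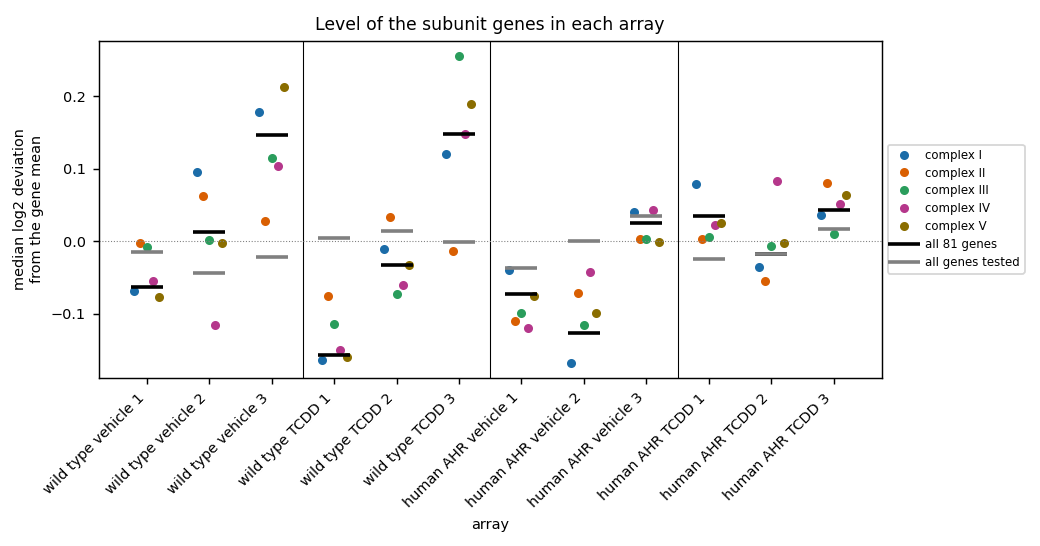
Median log2 deviation from the gene mean in each of the 12 arrays, for each complex (coloured points), for all 81 subunit genes (black bars) and for all genes measured (grey bars). The black bars run from -0.16 to 0.15 within the wild type TCDD group alone, while the grey bars stay near 0.

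Most pairs of subunit genes deviated in the same direction from array to array. For the 70 bright genes, correlations of the deviations from the group means over the 12 arrays had a median of 0.47 over 2415 pairs of genes. The median was 0.54 within a complex and 0.44 between complexes. By complex it was 0.53 in complex I, 0.46 in III, 0.62 in IV and 0.58 in V, while the 6 pairs of complex II had a median of -0.26. These pairs share the same arrays and the same scaling, so they are a description of these 12 arrays. A first principal component held 48.6% of the variance within groups and a second 29.8%. The second set Ndufs8, Ndufa10, Ndufc1, Ndufb7 and Ndufs3 at one end against Cox7a2l, Atp5md, Cox6c and Ndufa4 at the other, with wild type TCDD replicates 2 (1.14) and 3 (-1.11) farthest apart. In the array with the higher score Cox7a2l read 1557 and in the other 2916, while Ndufs8 read 1978 and 1392. In human AHR cells same-numbered vehicle and TCDD arrays scored alike on this component. Their scores were 0.58 and 0.66 for replicate 1, -0.62 and -0.60 for replicate 2, and 0.04 and -0.06 for replicate 3. Wild type vehicle replicates 1 to 3 scored -0.82, 0.60 and 0.22, and wild type TCDD replicate 1 scored -0.03.

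Ndufa1 and Ndufb11, both needed to assemble complex I, are the 2 X-linked genes among those with a promoter window. In the wild type replicate 2 arrays, where Xist was high, Ndufa1 read 4891 under vehicle and 4891 under TCDD, and Ndufb11 read 2784 and 2818. The other 10 arrays read 4952 to 7501 for Ndufa1 and 2537 to 3854 for Ndufb11, so Ndufa1 was lowest in the replicate 2 arrays and Ndufb11 was not. For Ndufa1 the margin from 4891 to 4952 is small beside its residual SD of 0.20 on the log2 scale. Each wild type group thus holds an array with high Xist, and no human AHR group does, which enters the comparisons of genotypes. Calls with these 2 arrays left out are given below, and the part of sex in the results was not tested.

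TCDD through the mouse receptor left no subunit gene past the threshold. In wild type cells 57 of the 81 genes lay below vehicle (44.3% of all genes did) and 24 above (55.7%), with a median log2 change of -0.05, against a median of 0.03 over all genes. Limma called 0 of the 81 at an adjusted p under 0.05, where 0.0055% of all genes were called, and 0 at an unadjusted p under 0.05, where the share of all genes was 4.18%. By complex, the genes below vehicle numbered 27 of 35 in complex I (median -0.08), 4 of 4 in complex II (-0.05), 4 of 8 in complex III (-0.0062), 9 of 17 in complex IV (-0.0053) and 13 of 17 in complex V (-0.04). The summed signal of the 4 cholangiocyte markers, in which Krt19 had the only mean above 200, was also lower under TCDD. It was 601.9 to 693.3 against 763.8 to 929.6 under vehicle, and its part in the result was not tested. The sums of the other cell types overlapped between wild type TCDD and vehicle arrays. The groups did not overlap in 3 subunit genes. Ndufs1 (log2 -0.16, 95% confidence interval -0.36 to 0.05) and Ndufa8, a small subunit of the membrane arm (-0.16, -0.39 to 0.07), lay below vehicle in all arrays, as did 2.82% of all genes. The standard error of Ndufs1, 0.10, is drawn in the fit toward genes of like intensity and is wider than its own spread would give. The testis form Cox8c lay above (0.55, -0.02 to 1.12), as did 6.18% of all genes, from single arrays at 68.1, 56.4 and 65.8 to 83.07, 122.4 and 99.03.

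The genes with the largest test statistic in each complex were Ndufs8 (-0.62, standard error 0.31), Sdhc (-0.24, 0.16), Uqcrc2 (-0.09, 0.10), Cox8c (0.55, 0.26) and Atp5md (-0.22, 0.21), each at a limma adjusted p of 0.966. Ndufs7, another iron-sulfur subunit, stood at -0.23 (unadjusted p = 0.0917), and its second probe set gave -0.23 as well. In 73 of the 81 genes the 95% confidence interval lay within a 1.5-fold change in either direction, as it did for 41.2% of all genes. The direction of the median rested on single arrays. Without wild type TCDD replicate 1 it was 0.04 with up to 47 genes above vehicle, and without wild type TCDD replicate 3 it was -0.14. The same-numbered arrays gave medians of -0.09, -0.08 and 0.02. With array weights it was -0.15 with 6 genes above vehicle. With arrays scaled to the same median it was -0.25 with 2 genes above, and the all-gene median, 0.03 in the main fit, was then -0.10.

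With the human receptor most subunit genes lay slightly above vehicle under TCDD, again with none past the threshold. The array level of the 81 genes averaged -0.06 under vehicle and 0.02 under TCDD, with a pooled SD between replicates of 0.10. In human AHR cells 67 of the 81 genes (82.7%) lay above vehicle and 14 below, against 46.9% and 53.1% of all genes, with a median of 0.07 (all genes -0.01). Limma called 0 of them, against 0.022% of all genes, and 1 had an unadjusted p under 0.05, against 2.9%. The genes above vehicle were 26 of 35 in complex I (median 0.05), 4 of 4 in complex II (0.07), 7 of 8 in complex III (0.08), 14 of 17 in complex IV (0.10) and 16 of 17 in complex V (0.08). The exception in complex V, with a change of -0.00088, lay at the level of vehicle.

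In human AHR cells the groups did not overlap in 8 genes, all higher under TCDD (9.88%, against 3.34% of all genes), and in 0 genes that were lower (against 3.87%). They were Ndufb3, a small membrane-arm subunit (0.15), Ndufb11 (0.11), Uqcrc2 (0.10), Cox7c (0.34, with -0.38 on its second probe set), Cox8b (0.75), and the ATP synthase genes Atp5j, of the peripheral stalk (0.17), Atp5j2 (0.14) and Atp5l (0.16), of the membrane part. Atp5j read 3130, 2886 and 3208 under vehicle and 3262, 3544 and 3543 under TCDD, a log2 change of 0.17 (standard error 0.12, limma adjusted p = 1). Atp5l read 3295, 3400 and 3657 under vehicle and 3792, 3885 and 3902 under TCDD. Cox8b had the unadjusted p of 0.0232 (log2 0.75, interval 0.12 to 1.38), on signals of 2.3, 4.2 and 6.1 against 6.9, 31.9 and 19.6, at the dim end of the array. Ndufb8, of the membrane arm, led complex I (0.16, standard error 0.12), and Sdha led complex II (0.08, 0.11). In 71 genes the interval lay within a 1.5-fold change, against 45.4% of all genes.

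Leaving out single arrays kept the human AHR median positive, between 0.04 without human AHR vehicle replicate 2 and 0.12 without human AHR vehicle replicate 3. The same-numbered arrays gave medians of 0.11, 0.13 and 0.01. After quantile normalization the median was 0.03 and 54 of 81 genes lay above vehicle, and with arrays scaled to the same median it was 0.11 and 76 genes did. In the fit that paired same-numbered arrays 0 of the 81 genes were called as well.

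**Figure D3:**
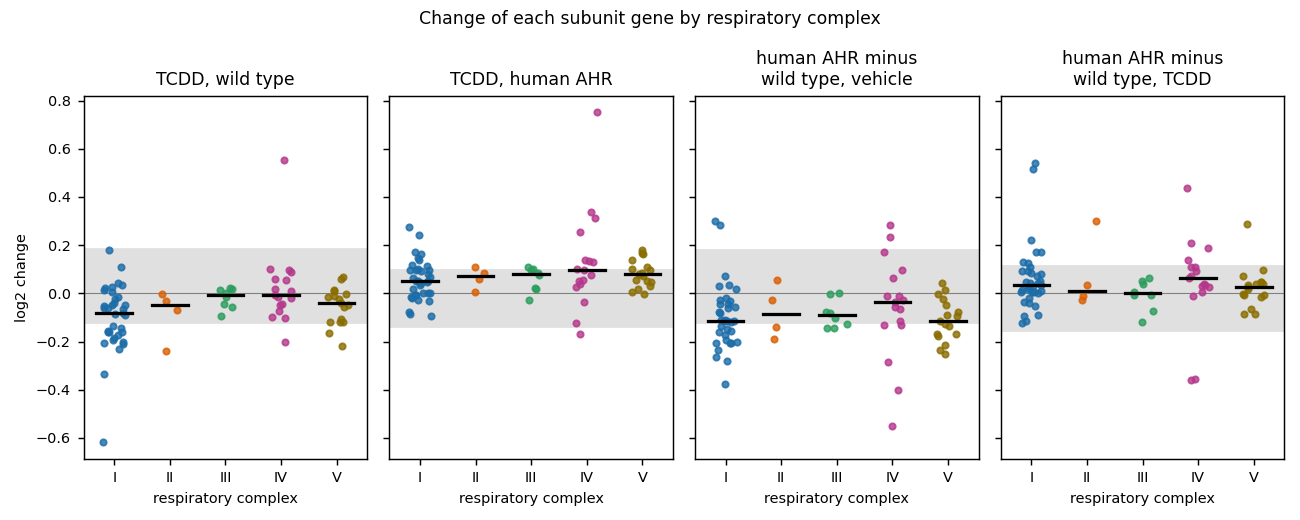
Log2 change of each of the 81 subunit genes (points) by respiratory complex in 4 comparisons, with the median of each complex as a black bar and the interquartile range of all genes measured as a grey band. Most points lie below 0 for TCDD in wild type cells and for the genotypes under vehicle, and above 0 for TCDD in human AHR cells, and the highest point is Cox8b at 0.75 with TCDD in human AHR cells.

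The difference of the TCDD effects (human AHR minus wild type) was positive in 70 and negative in 11 of 81 genes, against 44.1% and 55.9% of all genes, with a median of 0.11 (all genes -0.04). Limma called 0 of the 81 genes and 0 of all genes (0%), and the unadjusted p was under 0.05 in 0 of the 81 genes and in 3.14% of all genes. The median was 0.13 in complex I, 0.15 in II, 0.07 in III, 0.04 in IV and 0.12 in V, where all 17 genes were positive. The leading genes were Ndufb3 (0.34, 95% confidence interval -0.02 to 0.69), Sdhc (0.25, -0.24 to 0.73), Uqcrc2 (0.20, -0.12 to 0.51), Cox8b (0.76, -0.14 to 1.65) and Atp5j (0.27, -0.10 to 0.64), each at a limma adjusted p of 0.998. Ndufs8 stood at 0.89 (-0.06 to 1.85), with 0.25, 0.26, 0.28, -0.03 and -0.03 on its other probe sets. The interval of the difference lay within a 1.5-fold change in 43 of the 81 genes (15% of all genes), so for the rest a difference of that size was not bounded. Without wild type TCDD replicate 1 the median was 0.04 and without replicate 3 it was 0.22. With array weights it was 0.24. With arrays scaled to the same median it was 0.345, beside 0.12 for all genes. In 0 of the 81 genes did all TCDD arrays lie on one side of vehicle in one genotype and on the opposite side in the other. The share over all genes was 0.341%.

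Under vehicle the subunit genes tended to lie lower in human AHR than in wild type cells. Of the 81 genes 66 were lower (81.5%, against 44.9% of all genes) and 15 higher (55.1% of all genes), with a median of -0.10 (all genes 0.03), and limma called 0 of them against 0.0055% of all genes. The lower genes numbered 29 of 35 in complex I (median -0.12), 3 of 4 in complex II (-0.08), 7 of 8 in complex III (-0.09), 12 of 17 in complex IV (-0.03) and 15 of 17 in complex V (-0.12). The marker sums of endothelial cells and brown fat were higher in human AHR vehicle arrays without overlap, though all of these markers had means below 200. The 5 endothelial markers summed to 123.9 to 224.9 against 110.3 to 123 in wild type. The 2 of brown fat, mostly Cidea (mean 103.9, Ucp1 5.849), summed to 88.2 to 181.2 against 59.1 to 88. The sums of the other cell types overlapped between the vehicle groups. The part of these markers in the result was not tested. Ndufb3 had an unadjusted p of 0.0401, the 1 gene of the 81 under 0.05 (against 4.23% of all genes). It read 1100, 1111 and 1275 in wild type and 996.3, 906.4 and 986.2 in human AHR arrays, a log2 difference of -0.27 (standard error 0.12, interval -0.52 to -0.01, limma adjusted p = 0.965). Every human AHR array lay below every wild type array.

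The vehicle groups did not overlap in 8 genes, all lower in human AHR arrays (against 4.41% of all genes), and in 0 that were higher (against 6.27%). Besides Ndufb3 these were Ndufa8 (-0.20), Ndufa9, a subunit near the ubiquinone site (-0.21), Uqcrc2 (-0.15), Cox7c (-0.40, with 0.42 on its second probe set), Cox8b (-0.55), Atp5a1 (-0.08) and Atp5l (-0.17). Ndufa8 read 2489, 2513 and 2844 in wild type and 2265, 2192 and 2340 in human AHR arrays. The largest statistics of the other complexes belonged to Sdha (-0.14), Uqcrc2, Cox8b and Atp5e, the small epsilon subunit (-0.25), each at an adjusted p of 0.965. In 69 genes the interval lay within a 1.5-fold change, against 41.3% of all genes. The median stayed negative with any array left out, from -0.14 without wild type vehicle replicate 1 to -0.03 without wild type vehicle replicate 3, and with arrays scaled to the same median it was -0.19 with 5 genes higher. This comparison, the TCDD effect in wild type cells and the difference of effects use the same wild type vehicle arrays, and the human AHR vehicle arrays also enter the TCDD effect in human AHR cells. The values of Ndufb3, Uqcrc2 and Cox8b in these comparisons are therefore not independent of each other.

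Under TCDD the genotypes differed little at the median gene. Of the 81 genes 57 were higher in human AHR cells (70.4%, against 47.6% of all genes) and 24 lower (52.4% of all genes), with a median of 0.03, and limma called 0, as it did for all genes (0%). At an unadjusted p under 0.05 there were 0 of the 81 and 4.11% of all genes. The median was 0.03 in complex I, 0.01 in II, 6.8e-05 in III, 0.06 in IV and 0.03 in V. The 6 stellate cell and fibroblast markers, all with means below 200, summed to 164 to 216 in human AHR and 71.49 to 141.6 in wild type arrays. Their part was not tested, and the sums of the other cell types overlapped between these TCDD groups. The leading genes were Ndufa4l2 (0.54, standard error 0.30), Sdhc (0.30, 0.16), Uqcrc1 (-0.12, 0.11), Cox6a2 (0.44, 0.22) and Atp5md (0.29, 0.21), each at an adjusted p of 1. The groups did not overlap in 4 genes, all higher in human AHR arrays (4.94%, against 3.23% of all genes), and 0 were lower (against 4.86%). They were Ndufs1 (0.11), Ndufs7 (0.22) and the dim Cox6a2 and Cox6b2. In 70 genes the interval lay within a 1.5-fold change, against 43.2% of all genes. The median had the opposite sign without wild type TCDD replicate 1 (-0.04) and after quantile normalization (-0.0016, with 40 of 81 genes higher), and with arrays scaled to the same median it was 0.17 with 79 genes higher. Without wild type TCDD replicate 3 it was 0.12, and with array weights 0.13.

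**Figure D4:**
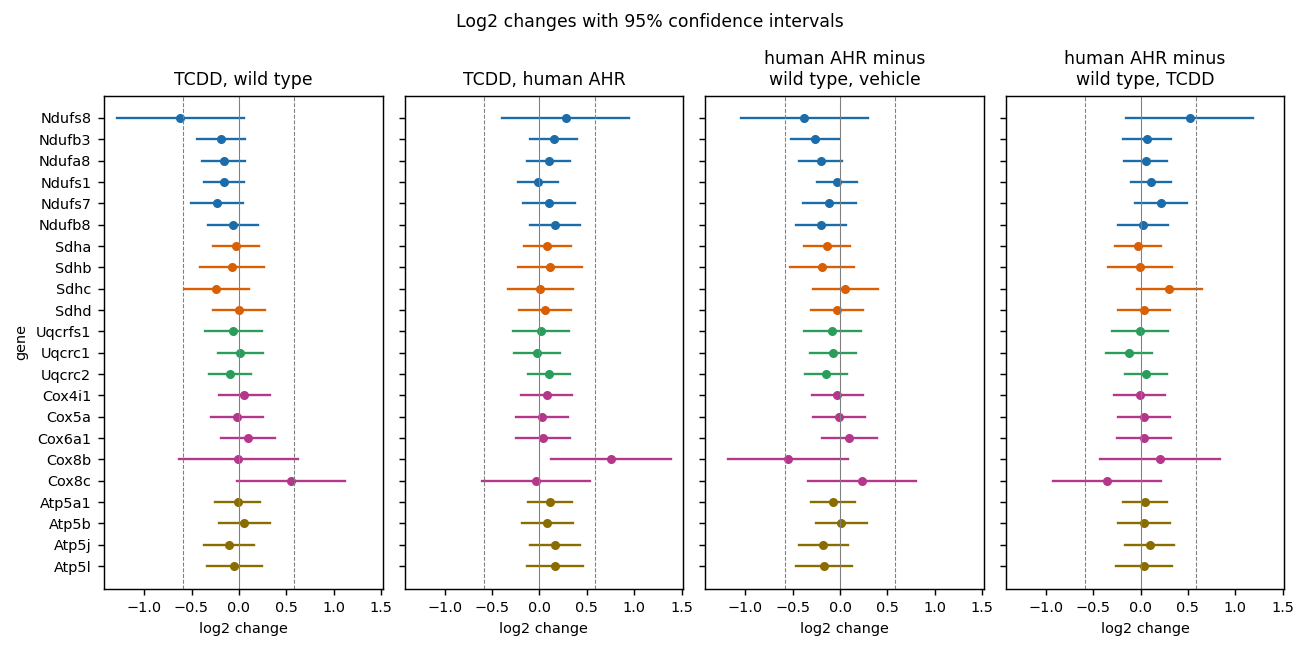
Log2 change (point) and 95% confidence interval (line) of 22 subunit genes in 4 comparisons, coloured by complex, with dashed lines at a 1.5-fold change in either direction. Most intervals lie between the dashed lines and cross 0, and among these 22 genes Ndufs8, Cox8b and Cox8c have the widest.

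**Figure D5:**
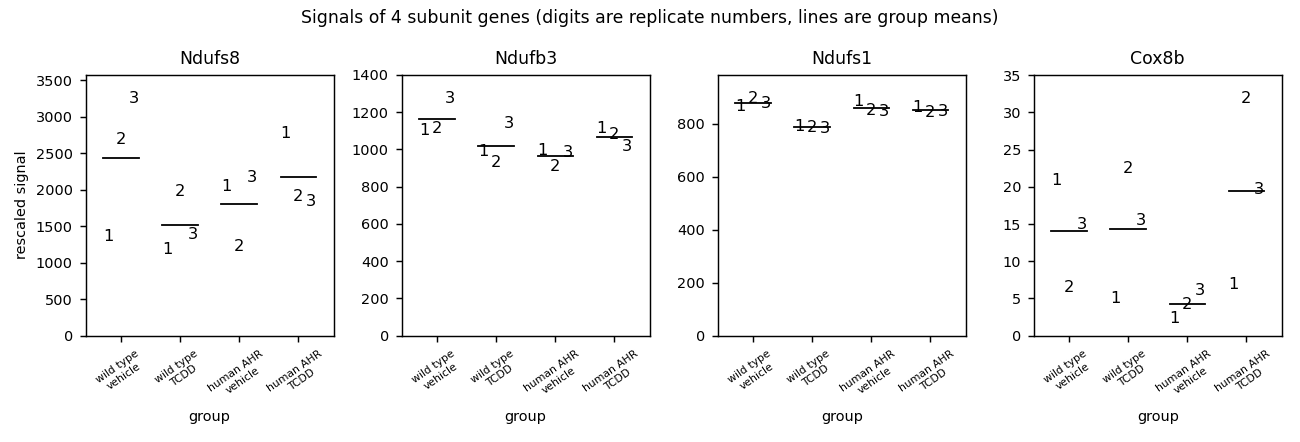
Rescaled signal (linear axis from 0) of Ndufs8, Ndufb3, Ndufs1 and Cox8b in each array by group, with the replicate number as the symbol and the group mean as a line. Ndufs8 spreads from 1187 to 3252, while Ndufs1 stays between 783.7 and 897.1 with the 3 wild type TCDD arrays lowest.

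Second probe sets gave a partial check within the same arrays. Of the 81 genes 48 had more than 1 probe set, and 55 further probe sets of 38 genes had a mean signal above 200. Their change had the same sign as that of the probe set used in 38 of 55 for TCDD in wild type cells, 40 for TCDD in human AHR cells, 44 for the difference, 46 for the genotypes under vehicle and 33 for the genotypes under TCDD. Their median changes were -0.09, 0.08, 0.14, -0.10 and 0.04. Uqcrc2 gave -0.13, 0.23, 0.36, -0.16 and 0.20 on its second probe set, beside -0.09, 0.10, 0.20, -0.15 and 0.05 on the one used. Probe sets of a gene read the same RNA, so they check the probe and not the culture.

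Other genes of the pathway, from lists set up with the earlier results of these data known, also had 0 members past the threshold in each comparison. Of all genes, 0.0055% passed it for TCDD in wild type cells and for the genotypes under vehicle, 0.022% for TCDD in human AHR cells, and 0% in the remaining comparisons. For the counts of signs, 44.3% of all genes lay below vehicle with TCDD in wild type cells, 53.1% in human AHR cells, and 44.9% were lower in human AHR cells under vehicle. Of 44 measured assembly factors, which build the complexes, 34 lay below vehicle with TCDD in wild type cells (median -0.11), 22 in human AHR cells (0.0045), and 31 were lower in human AHR cells under vehicle (-0.09). Coa7, a factor for complex IV, stood at -0.39 in the first (unadjusted p = 0.0342, adjusted 0.966), and Tmem70, a factor for ATP synthase, at -0.28 in the last (0.0378, adjusted 0.965). A list of 18 measured genes held electron carriers, subunits that the symbols miss, genes of ubiquinone synthesis, and the dehydrogenases Dhodh and Gpd2. Of these 18 genes, 13 lay below vehicle in wild type and 6 in human AHR cells. Among them Cyc1, the cytochrome c1 of complex III, stood at -0.16 and 0.13, Cycs, cytochrome c itself, at -0.07 and -0.01, and Ndufab1, the acyl carrier of complex I, at -0.28 and 0.08. The testis cytochrome c, Cyct, lay above vehicle in wild type cells (0.55, unadjusted p = 0.0121, adjusted 0.966), on signals of 9.1 ± 2.95 and 20.77 ± 4.62, and at 0.28 in human AHR cells. All 16 measured genes of the citric acid cycle and of pyruvate dehydrogenase lay below vehicle in wild type cells (median -0.09). In human AHR cells 6 of these 16 lay below vehicle (0.03). Citrate synthase, Cs, stood at -0.20 and 0.05, and Pdha1, of pyruvate dehydrogenase, differed by -0.34 between the genotypes under vehicle (unadjusted p = 0.0299, adjusted 0.965).

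Of 18 measured regulators of mitochondrial genes, 10 lay above vehicle in wild type cells (median 0.03) and 8 in human AHR cells (-0.01), and 15 were higher in human AHR cells under vehicle (0.13), with 0 past the threshold. Nrf1 averaged 160.6 ± 38.2 in wild type vehicle, 219.4 ± 79.6 in wild type TCDD, 204.8 ± 68.8 in human AHR vehicle and 220.8 ± 65.1 in human AHR TCDD arrays. Gabpa stood at 0.10 and 0.0037 with TCDD, Tfam, the packaging factor of mitochondrial DNA, at -0.0087 and 0.06, and the coactivator Ppargc1a at 0.09 and -0.05 on signals of about 43.76 in wild type TCDD arrays. Tfb2m, a mitochondrial transcription factor, stood at 0.37 in wild type cells (unadjusted p = 0.0338, adjusted 0.966). Of 13 measured carriers and coupling proteins of the mitochondrial membranes 11 lay below vehicle in wild type and 3 in human AHR cells. Slc25a13, the aspartate-glutamate carrier, stood at -0.45 in wild type cells (unadjusted p = 0.0304, adjusted 0.966). Ckmt1, a mitochondrial creatine kinase, stood at -0.47 in human AHR cells (unadjusted p = 0.0402, adjusted 1), on signals of 14.67 ± 7.15 and 5.833 ± 1.63. Nnt, the transhydrogenase of which C57BL/6J mice carry a deletion, averaged 106.4 ± 36.3 in wild type vehicle arrays, and the human AHR vehicle arrays averaged 78.1 ± 11.2. The genes with the smallest p of a list that are not named above all had an unadjusted p above 0.05. With TCDD in human AHR cells these genes were Uqcc1, for complex III assembly (0.22), Pdss2, of ubiquinone synthesis (0.33), Dlat, of pyruvate dehydrogenase (-0.18), and the receptor Esrra (-0.46). Every list's smallest p for the difference of effects was above 0.05 as well, in Tmem70 (0.37), Ndufab1 (0.36), Idh3g (0.20), Tfb2m (-0.38) and the channel Vdac2 (0.21). For the genotypes under vehicle Ndufab1 stood at -0.28, the coactivator Pprc1 at 0.20 and the ADP/ATP carrier Slc25a4 at -0.60. Under TCDD the insertase Oxa1l stood at 0.32, Cyc1 at 0.22, Cs at 0.19, Tfb2m at -0.26 and Vdac2 at 0.20. Transcripts of the mitochondrial genome were not analysed here.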

How the data were processed

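RNA of 12 cultures was measured on Affymetrix arrays holding 45101 probe sets. The deposited intensities are linear, and according to the design text the authors read the scans in GCOS and normalised them by PLIER-MM (Affymetrix Expression Console 1.1, also named in the submitters' processing notes). The trimmed mean (2% off each end) of the deposited values equalled 500 in the wild type TCDD group (3 arrays) and 150 in the remaining 9, a step that no source used here describes. Every array was rescaled to 150. After removing 64 control probe sets, 34945 probe sets named 1 gene symbol, 932 named several and 9160 had none listed and were not analysed here by gene. The brightest probe set stood for each gene.

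Log2 of the rescaled intensity plus 16 was fitted with limma 3.58.1 in R 4.3.3, with 1 coefficient for each group, 12 arrays in all and 8 residual degrees of freedom, and eBayes with an intensity trend. Log2 changes and folds are on this scale. Tests were two-sided, with Benjamini-Hochberg adjustment over all 18193 genes, a threshold of 0.05 and 95% intervals that are not adjusted for the number of genes. The fit was tested on simulated data whose genes varied independently of each other. Subunit genes here deviated together, a setting that the simulation did not cover. The members and lists were chosen with earlier results of these data known, so lists are described by counts and medians without a test. Genes were named by a rule: per comparison the largest statistic of each complex, the brightest and dimmest gene of each complex, fixed catalytic and tissue-form subunits, and of the other lists the smallest p and a few fixed genes. Genes whose groups did not overlap, that led a principal component or that are X-linked were named after their values were seen. The number of arrays limits the precision, and each array is a different mouse per the design text. Same-numbered human AHR arrays deviated together (r across genes 0.19 to 0.27, other numbers at most -0.04) and were taken as paired in an alternative fit, a pairing that comes from the values. Deviations from a group mean cancel out within the group. A positive r for same numbers therefore goes with negative values among other numbers, which are not separate evidence. In wild type cells the same-numbered r were 0.25, 0.51 and 0.05 (the second between the Xist-high arrays) and other numbers reached 0.28. The same fit also blocked wild type arrays by number, though these values over all genes do not set same-numbered pairs apart. Over the subunit genes alone, the same-numbered wild type r were 0.38, 0.41 and 0.25, and other numbers ran from -0.26 to 0.0089. On the subunit genes same-numbered wild type arrays thus stood apart, with the same cancelling within groups. Whether they are pairs was not tested. For the comparisons of genotypes the fit blocked by number across genotypes. There same-numbered arrays of the same treatment had r over all genes of -0.32 to 0.04, and other numbers -0.19 to 0.34. Alternatives covered offset, scaling, filter, trend, array weights, probe sets, pairing and leaving out arrays. Plots come from Python 3.11.15 and matplotlib 3.10.9.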

Additional observations from a re-analysis of the deposited data

How the results depend on the processing

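The number of subunit genes called was 0 in every comparison under each of the 24 alternative settings that gave a value, 12 of which left out 1 array. Dim genes have no value with the dimmest 40% of genes left out, and the difference of effects has no fit on fewer groups than 4. Median changes of the 81 genes moved by more than the spread between replicates in these cases. With arrays scaled to the same median they were -0.25 for TCDD in wild type cells, 0.345 for the difference of effects and 0.17 for the genotypes under TCDD. With array weights they were -0.15 for TCDD in wild type cells and 0.24 for the difference. Leaving out 1 array, the medians ran from -0.14 to 0.04 for TCDD in wild type cells, 0.04 to 0.12 for TCDD in human AHR cells, 0.043 to 0.22 for the difference, -0.14 to -0.03 for the genotypes under vehicle and -0.04 to 0.12 under TCDD. The cause was not tested.

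Over all genes, limma called 1 gene for TCDD in wild type cells, 4 in human AHR cells, 0 for the difference, 1 for the genotypes under vehicle and 0 under TCDD. In wild type cells this became 0 with the same median, without the trend, on the arrays of the groups compared and with both wild type replicate 2 arrays left out. In human AHR cells it became 2 with quantile normalization or without the trend and 1 with the mean over probe sets. For the difference it became 1 with both wild type replicate 2 arrays left out. For the genotypes under vehicle it became 2 with an offset of 50, array weights or the mean over probe sets, and 0 without the trend or with the replicate block. Under TCDD it became 4 with array weights, 1 with the mean over probe sets and 2 with both wild type replicate 2 arrays left out. Leaving out 1 array gave 0 to 1, 0 to 6, 0 to 1, 0 to 2 and 0 to 1 genes in the order above.

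With the replicate block 0 subunit genes were called and the medians stayed at -0.05 and 0.07 for TCDD in wild type and human AHR cells. The block joined same-numbered arrays within each genotype for the TCDD effects and their difference. For the comparisons of genotypes it joined same numbers across genotypes. It changed no call of a subunit gene. Its unadjusted p was under 0.05 in 5 of the 81 genes for TCDD in wild type cells (7.56% of all genes), 1 in human AHR cells (4.06%), 7 for the difference of effects (4.73%), 1 for the genotypes under vehicle (4.41%) and 0 under TCDD (4.28%). The 7 were Ndufs8, Ndufs4, Ndufs5, Ndufb3, Ndufs7, Ndufs3 and Atp5j, with 0.893 as the smallest adjusted p. For the named subunit genes 0 of 5092 recomputed values changed side of the threshold, and 343 had the opposite sign.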
